A study of Oryza sativa Japonica Group with 8 samples.

Results

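The auxin response factors (ARF) and Aux/IAA repressors of rice were described across the pistil by their read counts. The members were fixed as a list of locus identifiers, OsARF1 to OsARF25 without OsARF20 and OsIAA1 to OsIAA31. The rule uses the identifiers and no measured value, but the list was chosen with earlier results of these data known. The members came to 55 genes of the 38726 features in the count table, 24 ARF and 31 Aux/IAA genes, and all 55 had a row. The plants were untreated wild type of Oryza sativa ssp. japonica, cultivar Nipponbare, and the pistils were taken at heading. There were 8 libraries in 3 groups, namely nuclei sorted from pistils (n = 2), whole-cell RNA of the upper part of the pistil (n = 3) and whole-cell RNA of its lower part (n = 3). Where the pistil was divided, and whether replicates came from separate plants, is not stated, so the spread that p-values rest on may be technical. Nuclei libraries were made with a SMART-Seq kit and whole-cell libraries with a directional kit, so kit and compartment cannot be told apart.

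ARF proteins are transcription factors that bind auxin response elements in promoters. Aux/IAA proteins bind ARFs and recruit TOPLESS-type corepressors, and auxin lifts this block by docking Aux/IAA proteins to TIR1/AFB receptors, F-box proteins that mark them for degradation. Many Aux/IAA genes are themselves induced by auxin, which closes a negative feedback loop. Rice ARFs fall into classes named after their Arabidopsis relatives. The ARF5-like, ARF6/8-like and ARF7/19-like classes are activators, and the ARF1/2-like, ARF3-like and ARF10/16-like classes are mostly repressors of transcription. Class names follow Arabidopsis numbering and gene names follow rice numbering, so OsARF5 belongs to the ARF7/19-like class and OsARF8 to the ARF10/16-like class. In the Arabidopsis gynoecium, ARF3 (ETTIN) patterns style and ovary, and ARF6 and ARF8 promote growth of the style and stigma.

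Total counts lay between 9268151 and 10857036 in nuclei, between 26983741 and 34767439 in upper libraries and between 24796307 and 35518142 in lower libraries. Levels are given as CPM, counts scaled to library size, with TMM scaling over all 8 libraries. A floor of 3 counts was then worth 0.269 and 0.371 CPM in nuclei and at most 0.136 CPM in whole-cell libraries, which covers counting error only. Gene lengths were not used here, so CPM values are compared between libraries and not between genes. Carpel and ovule markers of the labelled organ were present, 5 of 5 in every library. Markers of the B class, which specify stamens and lodicules, were also present (3 of 3 in every library). Their summed level was 244 and 489 CPM in nuclei, 789 to 1150 CPM in upper libraries and 328 to 996 CPM in lower libraries, with the 996 CPM in lower replicate 3. Tapetum markers of the anther summed to 3.34 and 6.27 CPM in nuclei, 3.25 to 5.66 CPM in upper libraries and 2.32 to 3.26 CPM in lower libraries, where OsC6 was at 0. Lower replicate 3 stood apart, with a mean rank correlation of 0.878 with its own group across genes and 0.919 with the upper libraries. The other 5 whole-cell libraries were closer to their own part.

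All 24 ARF genes were detected above the floor in the upper part, and only OsARF13 lay at or below the floor in any library. Summed over the 24 genes, ARF transcripts came to 1233 and 1385 CPM in nuclei, to 1716, 2555 and 1531 CPM in upper replicates 1 to 3 and to 1866, 2342 and 1399 CPM in lower replicates 1 to 3. Both nuclei libraries lay below all whole-cell libraries in this sum, and upper and lower libraries overlapped. Aux/IAA transcripts summed to 1301 and 1608 CPM in nuclei, to 2470, 1562 and 1763 CPM in upper replicates 1 to 3 and to 1308, 943 and 1509 CPM in lower replicates 1 to 3. Here the upper and lower libraries did not overlap, although upper replicate 2 exceeded lower replicate 3 only slightly. With TMM scaling, the upper library of every replicate number held more Aux/IAA transcript than the lower one. With total counts as library sizes, this order turned in replicate 3 and the parts overlapped (group means 1786 CPM in upper, 1419 CPM in lower libraries). Nuclei replicate 1 then also no longer lay below all whole-cell libraries in the ARF sum. These sums are dominated by the members with most counts and carry no test.

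**Figure D1:**
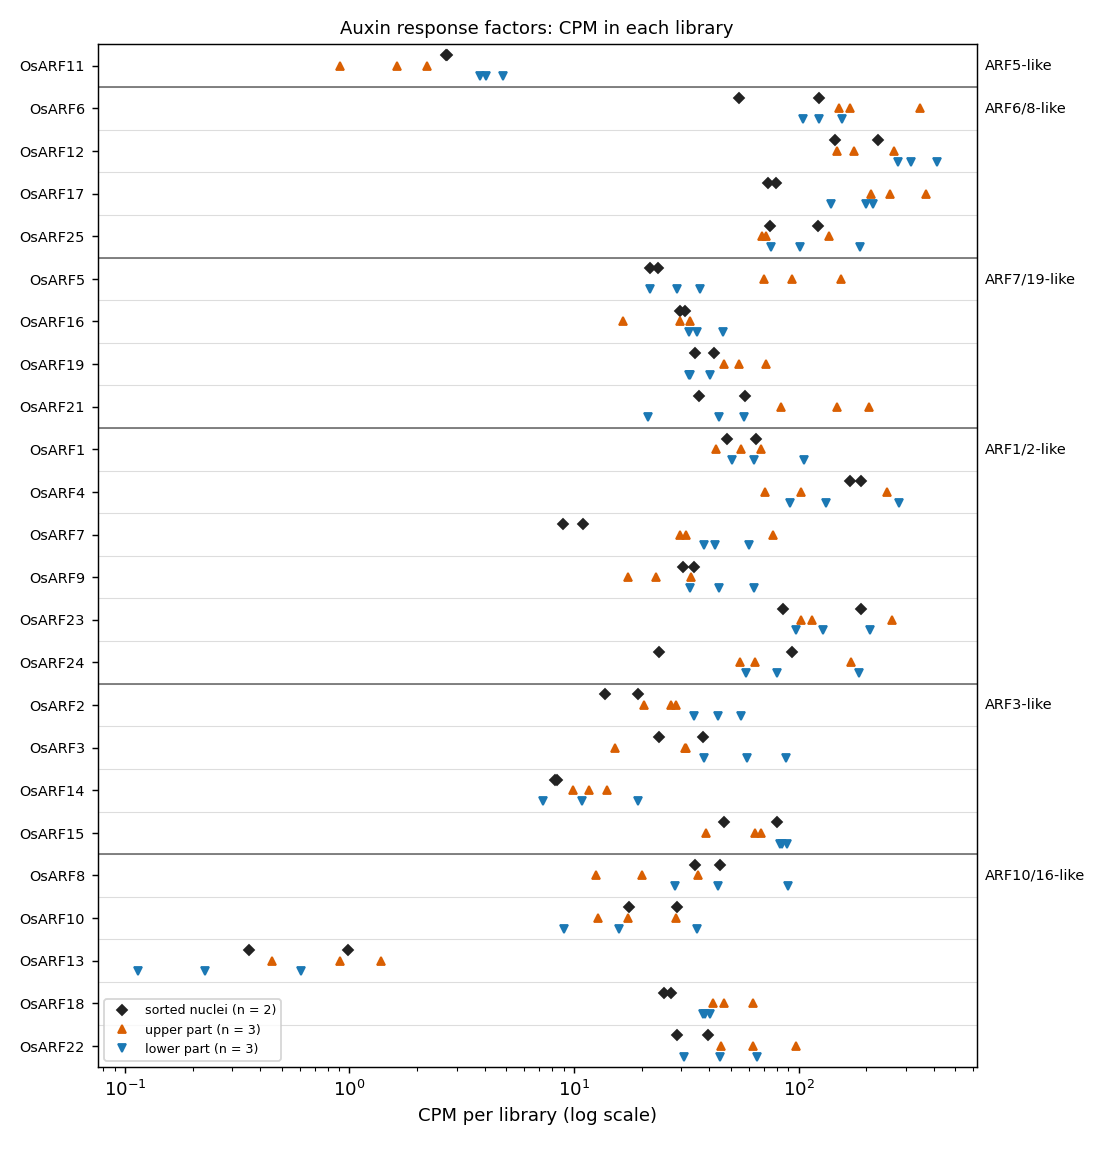
CPM of each ARF gene (rows, grouped by class) in each library on a log axis; symbols mark sorted nuclei (n = 2), upper part (n = 3) and lower part (n = 3). OsARF5 and OsARF21 of the ARF7/19-like class have all upper libraries above all lower ones (70.3 to 154 against 21.8 to 36.5 CPM for OsARF5), whereas ARF3-like OsARF3 has them below.

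**Figure D2:**
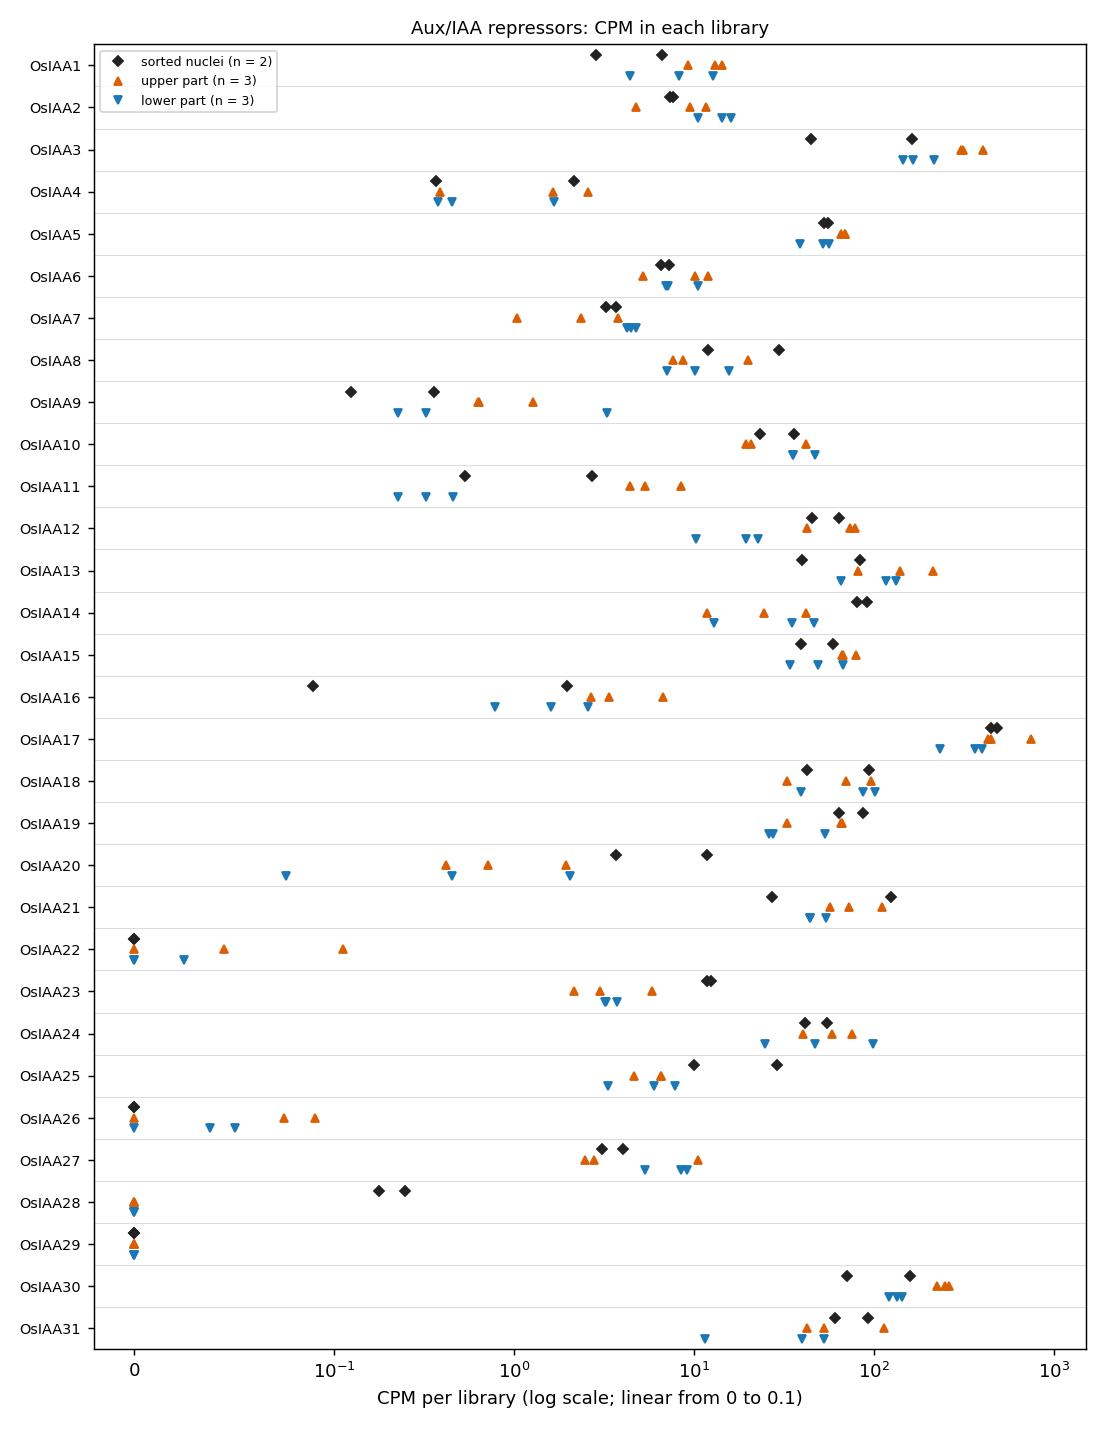
CPM of each Aux/IAA gene (rows) in each library, on an axis that is linear up to 0.1 CPM and logarithmic above; symbols as named in the key. OsIAA11 sits between 4.4 and 8.5 CPM in upper libraries and under 0.5 CPM in lower ones, and OsIAA22, OsIAA26, OsIAA28 and OsIAA29 lie near or at 0 throughout.

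The first comparison set the upper against the lower part. A call needed a Benjamini-Hochberg adjusted p under 0.05 over all genes tested and a log2 fold change of at least 1 in size (edgeR quasi-likelihood test). Of the 55 members, 51 passed the filter on low counts, 24 of 24 ARF and 27 of 31 Aux/IAA genes. Without regard to replicate number, 1 member, OsIAA11, was called higher in the upper part and 0 were called lower, against 0.811% and 0.00335% of all 29848 genes tested (0.814% in all). Before adjustment, 8 members higher and 4 members lower had a p under 0.05, and 4 and 7 did when library size was the scaling. Counts at an unadjusted p, here and below, stand without a share over all genes and are not compared with one. Upper and lower libraries of the same number deviated together, so the fit with replicate number as a block is given beside it. With the block, 4 members were called higher (OsARF5, OsARF21, OsIAA11 and OsIAA12) and 2 lower (OsARF3 and OsARF8), against 5.12% and 3.02% of all genes (8.14% in all). The 6 calls are 11.8% of the 51 members tested, and no test of that share against the 8.14% was made. Without replicate pair 2 the block gave 0 calls among members, with 0.325% of all genes called (5 members higher and 5 members lower had an unadjusted p under 0.05). The single calls lost without pair 2 below go with this lower share over all genes. Without pair 3, which holds the lower library that stood apart, the block gave 7, OsIAA31 being added, with 9.76% of all genes called. In whole tissue, fewer cells of a type and less RNA per cell cannot be told apart.

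The ARF7/19-like activators (OsARF5, OsARF16, OsARF19 and OsARF21) differed between the parts in their summed level. They came to 362, 343 and 305 CPM in upper replicates 1 to 3, against 149, 137 and 144 CPM in lower replicates 1 to 3. Neither part spread by more than 29 CPM (SD, n = 3 each), and the parts did not overlap. In rice, OsARF19 is known for its part in leaf angle and OsARF16 for phosphate starvation responses. RefSeq lists OsARF19 and OsARF21 also as ARF7a and ARF7b.

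OsARF5 (Os02g0141100) had 70.3, 154 and 93.4 CPM in upper libraries, against 28.7, 36.5 and 21.8 CPM in lower libraries. All upper values lay above all lower ones. The log2 fold change was 1.85 (SE 0.23) with the block (edgeR adjusted p = 0.0173, 3.6-fold higher in the upper part). Without the block the log2 fold change was 1.89 (SE 0.38) and the edgeR adjusted p 0.0865. OsARF21 (Os08g0520500) had 207, 83.5 and 148 CPM in upper libraries, against 44.4, 21.4 and 57.3 CPM in lower libraries. Replicate 2 was the lowest of each part for this gene, and the parts did not overlap. With the block its log2 fold change was 1.87 (edgeR, SE 0.26, adjusted p = 0.0201), and without the block 1.85 (edgeR, SE 0.49, adjusted p = 0.173). OsARF5 and OsARF21 lost the call when replicate pair 2 was left out, with adjusted p of 0.113 and 0.133 in the blocked edgeR fit. OsARF19 also separated the parts, with 54.4, 71.8 and 46.8 CPM in upper libraries, against 40.3, 32.6 and 32.7 CPM in lower libraries, but was not called. OsARF16 leaned the other way, with 29.7, 32.9 and 16.6 CPM in upper libraries and 35.3, 46.3 and 32.4 CPM in lower libraries, lower in the upper library of each pair and not called.

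**Figure D3:**
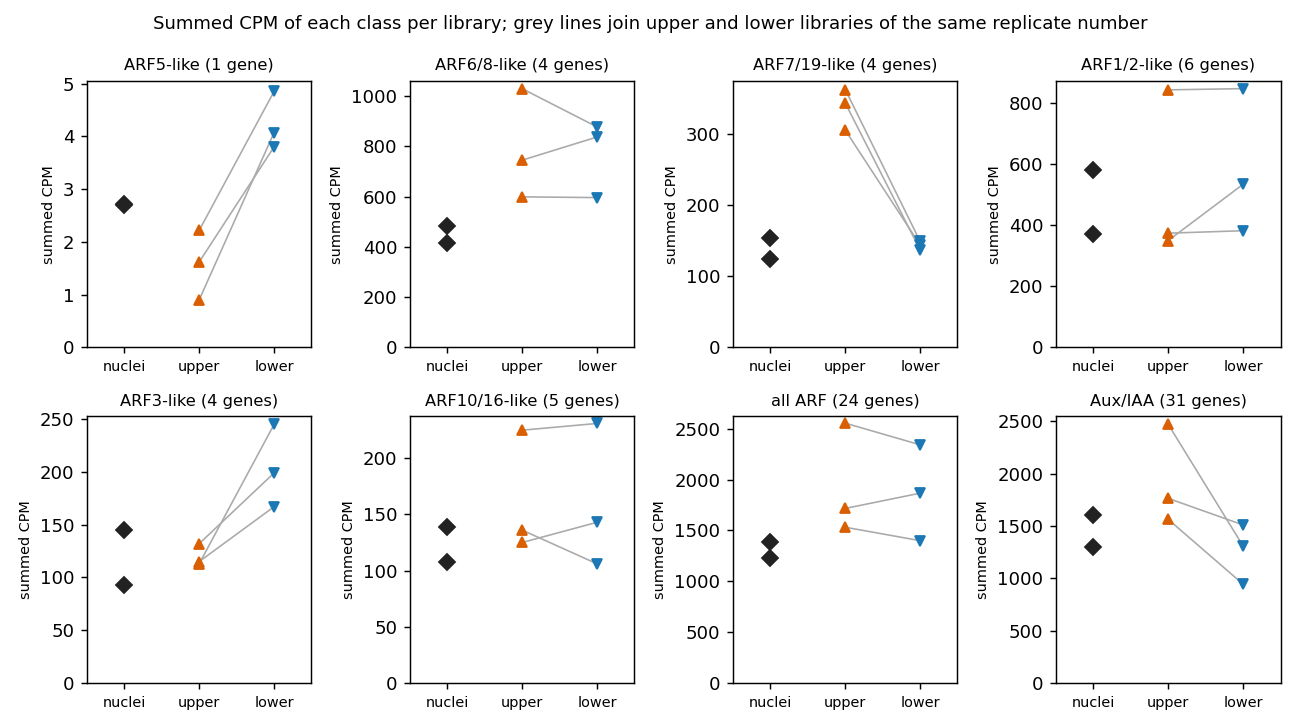
Summed CPM of each ARF class, of all ARF genes and of the Aux/IAA genes in each library of nuclei (n = 2), upper part (n = 3) and lower part (n = 3); grey lines join upper and lower libraries of the same replicate number, and each axis starts at 0. The ARF7/19-like sum is 305 to 362 CPM in upper libraries against 137 to 149 CPM in lower ones, the ARF3-like sum is 113 to 132 CPM against 167 to 245 CPM, and the ARF6/8-like sums overlap.

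Of the 4 ARF3-like genes, 0 were called without the block and 1, OsARF3, was called lower in the upper part with it. Their sum was 132, 113 and 115 CPM in upper replicates 1 to 3, against 199, 245 and 167 CPM in lower replicates 1 to 3, again without overlap. The class holds OsARF2 and OsARF15, which RefSeq lists as OsETTIN2 and OsETTIN1, with OsARF3 and OsARF14. In plants, transcripts of this class are cut by tasiR-ARF small RNAs, which depend on a microRNA-triggered pathway that shapes lateral organs.

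OsARF3 (Os01g0753500) had 31.3, 31.4 and 15.2 CPM in upper libraries, against 59.1, 87.9 and 38.1 CPM in lower libraries. The parts did not overlap, and replicate 3 was the lowest of each. The log2 fold change was -1.22 (edgeR, SE 0.20, adjusted p = 0.0263) with the block and -1.22 (edgeR, SE 0.42, adjusted p = 0.276) without it. Without replicate pair 2 the blocked edgeR fit gave an adjusted p of 0.141. OsARF2 had 27.1, 28.5 and 20.5 CPM in upper libraries, against 43.9, 55.7 and 34.3 CPM in lower libraries. It too did not overlap, and its blocked adjusted p of 0.047 (edgeR) came with a log2 fold change of -0.78 (SE 0.17), under the minimum for a call. OsARF15 had 38.6 to 67.9 CPM in upper and 82.6 to 88.6 CPM in lower libraries, without overlap and without a call. OsARF14 was mixed, with 9.93 to 14.1 CPM in upper and 7.26 to 19.3 CPM in lower libraries.

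The ARF6/8-like activators (OsARF6, OsARF12, OsARF17 and OsARF25) are targets of miR167, and OsARF12, OsARF17 and OsARF25 are known in rice for flower opening and stigma size. None of the 4 was called between the parts by edgeR or DESeq2, and the count at an unadjusted p under 0.05 was 0 without the block and 1 higher (OsARF6) and 1 lower (OsARF12) with it. Their sum overlapped, with 745, 1029 and 599 CPM in upper replicates 1 to 3 and 837, 877 and 596 CPM in lower replicates 1 to 3. Within the class the genes differed in direction. OsARF6 had 151, 347 and 170 CPM in upper libraries and 124, 156 and 105 CPM in lower libraries, and each upper library exceeded the lower library of its pair. Its log2 fold change was 0.82 (edgeR, SE 0.44, adjusted p = 0.436), and 0.73 (SE 0.28, adjusted p = 0.137) with the block. OsARF12 had 267, 176 and 149 CPM in upper libraries, against 412, 318 and 276 CPM in lower libraries, which did not overlap. Its log2 fold change was -0.74 (edgeR, SE 0.41, adjusted p = 0.45), and -0.77 (SE 0.28, adjusted p = 0.123) with the block. OsARF17 was above its pair in each upper library (211 to 369 CPM in upper, 139 to 215 CPM in lower libraries) and OsARF25 below it (69.1 to 137 CPM in upper, 75.6 to 188 CPM in lower libraries).

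OsARF11 (Os04g0664400) is the only ARF5-like member. Its Arabidopsis relative ARF5 (MONOPTEROS) is known for embryo and vascular patterning and for the initiation of flowers. It had 2.22, 1.62 and 0.904 CPM in upper libraries, against 4.85, 3.8 and 4.07 CPM in lower libraries. Every upper value lay below every lower one, but the log2 fold change of -1.39 (SE 0.48) was not called (edgeR adjusted p = 0.277, and 0.0722 with the block).

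The ARF10/16-like genes (OsARF8, OsARF10, OsARF13, OsARF18 and OsARF22) are targets of miR160. OsARF8 (Os02g0628600) had 20, 35.5 and 12.5 CPM in upper libraries, against 43.8, 89.7 and 28.1 CPM in lower libraries. The parts overlapped, since upper replicate 2 exceeded lower replicate 3, but within each pair the upper library had 0.456, 0.396 and 0.445 times the CPM of the lower one. It came to a log2 fold change of -1.19 (edgeR, SE 0.17, adjusted p = 0.0201) with the block and -1.22 (edgeR, SE 0.53, adjusted p = 0.364) without it. Leaving out pair 2 gave a blocked edgeR adjusted p of 0.131. OsARF18 lay higher in all upper libraries (41.6 to 62.7 CPM) than in all lower ones (37.5 to 40.3 CPM) without a call, and OsARF10 (12.8 to 28.5 CPM in upper, 8.99 to 35.4 CPM in lower libraries) and OsARF22 (45.1 to 97.1 CPM in upper, 30.8 to 65.4 CPM in lower libraries) overlapped. OsARF13 stayed at 0.451 to 1.38 CPM in upper and 0.114 to 0.608 CPM in lower libraries, and all 3 upper libraries but 1 lower library reached the filter's minimum for this gene.

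None of the 6 ARF1/2-like genes (OsARF1, OsARF4, OsARF7, OsARF9, OsARF23 and OsARF24) was called between the parts in either edgeR fit or by DESeq2, and 1, OsARF9, had an unadjusted p under 0.05 without the block. OsARF4 is known as a regulator of grain size. OsARF9 had 23.1, 33.2 and 17.4 CPM in upper libraries and 44.2, 63.1 and 32.9 CPM in lower libraries. The parts overlapped by a small margin, while the ratio of upper to lower within pairs was 0.521, 0.526 and 0.529. Its log2 fold change was -0.91 (edgeR, SE 0.16, adjusted p = 0.0312) with the block, under the minimum for a call, and -0.90 (edgeR, SE 0.36, adjusted p = 0.326) without. OsARF1 had 68.4, 55.2 and 43 CPM in upper libraries and 106, 50.5 and 63.3 CPM in lower libraries, which overlapped (log2 fold change -0.38, SE 0.36, edgeR adjusted p = 0.63). Replicate 2 had the highest value of its part for OsARF4, OsARF7, OsARF23 and OsARF24 in both parts.

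**Figure D4:**
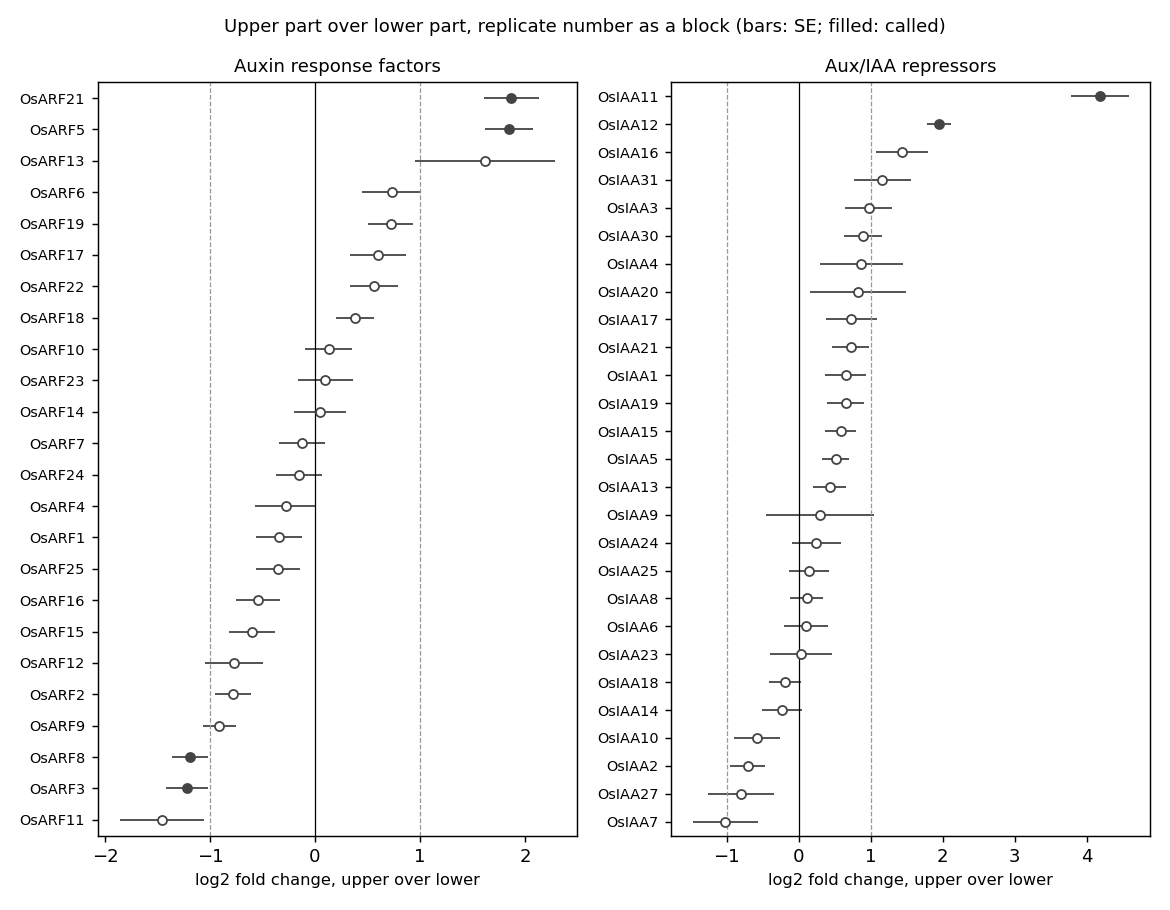
Log2 fold change of each tested member, upper over lower part, from the fit with replicate number as a block (n = 3 pairs); bars are standard errors, filled points were called and dashed lines mark a log2 fold change of 1 in size. OsARF21 (1.87) and OsARF5 (1.85) stand at the top of the ARF panel and OsIAA11 (4.18) at the top of the Aux/IAA panel, where 21 of 27 genes lie above 0.

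Aux/IAA genes lay more often above 0 than below it between the parts, with 20 above and 7 below without the block and 21 and 6 with it. Their median log2 fold change was 0.48 (27 genes tested), against -0.09 for the 24 ARF genes and -0.02 for all genes tested. OsIAA3, OsIAA5, OsIAA11, OsIAA12, OsIAA16, OsIAA17, OsIAA21 and OsIAA30 had every upper library above every lower one, and OsIAA7 had every upper library below. That is 8 and 1 of 27, against 9.93% and 10.6% of all genes tested. Among ARF genes it was 4 above (OsARF5, OsARF18, OsARF19 and OsARF21) and 5 below (OsARF2, OsARF3, OsARF11, OsARF12 and OsARF15) of 24. Within all 3 replicate pairs the upper library was higher for 13 and lower for 2 of the Aux/IAA genes, and higher for 8 and lower for 9 of the ARF genes, against 28.6% and 30.4% of all genes tested.

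OsIAA11 (Os03g0633500) had the largest log2 fold change among the members. In rice, a stabilised form of this repressor is known to block lateral root formation. It had 4.4, 5.36 and 8.5 CPM in upper libraries, against 0.326, 0.228 and 0.457 CPM in lower libraries. Every upper value lay far above every lower one. The log2 fold change was 4.19 (edgeR, SE 0.54, adjusted p = 0.0248) without the block and 4.18 (edgeR, SE 0.40, adjusted p = 0.00943) with it, which is 18.1-fold higher in the upper part. Within pairs 1, 2 and 3 the upper library had 13.5, 23.5 and 18.6 times the CPM of the lower one. Without the block the call was lost when upper replicate 1, 2 or 3 was left out (edgeR adjusted p = 0.0527, 0.0525 and 0.0997) and when lower replicate 1 or 2 was left out (0.155 and 0.114), but not without lower replicate 3 (0.029). With the block it was lost without pair 2 (0.0739). In all alternatives run it lay between 3.85 and 4.46 on the log2 scale. All 3 upper libraries but only 2 lower ones reached the filter's minimum for this gene.

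OsIAA12 (Os03g0633800) is the next feature in the table's locus order on chromosome 3, with 0 features listed between them, and has been linked in rice to the angle of the leaf blade. It had 79.1, 42.8 and 73.4 CPM in upper libraries, against 22.6, 10.3 and 19.4 CPM in lower libraries. The parts did not overlap, and the ratios within pairs were 3.5, 4.17 and 3.78. With the block the log2 fold change was 1.95 (edgeR, SE 0.17, adjusted p = 0.00845, 3.86-fold higher in the upper part), and without it 1.92 (edgeR, SE 0.40, adjusted p = 0.0884). Without pair 2 the blocked edgeR adjusted p was 0.0845.

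The other Aux/IAA genes that separated the parts upward did not pass the test in either fit. OsIAA3 had 305 to 402 CPM in upper and 146 to 217 CPM in lower libraries. OsIAA30 had 225 to 261 CPM in upper and 122 to 144 CPM in lower libraries, and its neighbour OsIAA31, with 42.4 to 114 CPM in upper and 11.6 to 53.1 CPM in lower libraries, overlapped. None of the next group was called either. OsIAA17 had 433 to 746 CPM in upper and 232 to 398 CPM in lower libraries, OsIAA5 65.7 to 69.3 CPM in upper and 38.7 to 56.6 CPM in lower libraries, OsIAA21 56.9 to 111 CPM in upper and 44 to 54.5 CPM in lower libraries, and OsIAA16 2.7 to 6.73 CPM in upper and 0.785 to 2.57 CPM in lower libraries. In the other direction, OsIAA7 had 1.04 to 3.8 CPM in upper and 4.23 to 4.75 CPM in lower libraries. OsIAA10, a repressor that rice dwarf virus is known to stabilise, had 19.5 to 42 CPM in upper and 35.6 to 46.9 CPM in lower libraries, which overlapped. OsIAA13, known like OsIAA11 for lateral roots, had 81.5 to 212 CPM in upper and 66.1 to 132 CPM in lower libraries, higher in the upper library of each pair.

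The rest of the Aux/IAA genes overlapped between the parts and were not called. OsIAA1 (9.29 to 14.3 CPM in upper, 4.43 to 12.8 CPM in lower libraries), OsIAA15 (66.9 to 80.1 CPM in upper, 34.3 to 67.7 CPM in lower libraries) and OsIAA19 were higher in the upper library of each pair, and OsIAA2 (4.76 to 11.7 CPM in upper, 10.6 to 16.1 CPM in lower libraries) was lower in each. Pairs were not of 1 direction for OsIAA6, OsIAA8, OsIAA14, OsIAA18, OsIAA20, OsIAA23, OsIAA24, OsIAA25 and OsIAA27. OsIAA4 was low, with 0.389 to 2.58 CPM in upper and 0.38 to 1.68 CPM in lower libraries, as was OsIAA9, with 0.629 to 1.27 CPM in upper libraries and 0.326, 0.228 and 3.31 CPM in lower libraries, where replicate 3 was far above the others.

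The B class marker sum was 1150, 789 and 864 CPM in upper replicates 1 to 3, against 494, 328 and 996 CPM in lower replicates 1 to 3, higher in the upper library of pairs 1 and 2 and lower in that of pair 3. Of its 3 genes, OsMADS16 was lower in the upper library of pair 3 (471 against 677 CPM). OsMADS2 (308 to 374 CPM in upper, 95 to 239 CPM in lower libraries) and OsMADS4 (84.8 to 152 CPM in upper, 73.7 to 80.6 CPM in lower libraries) had every upper library above every lower one. DROOPING LEAF, a carpel identity gene, had 254, 464 and 366 CPM in upper libraries, against 62.4, 113 and 50.7 CPM in lower libraries. It was called with the block (edgeR adjusted p = 0.0195) and not without it (0.0932). Other carpel and ovule markers went the other way, with every upper library below every lower one. These were OsMADS13 (176 to 314 CPM in upper, 372 to 574 CPM in lower libraries) and OsMADS21 (39.7 to 112 CPM in upper, 134 to 157 CPM in lower libraries). OsMADS3 and OsMADS58 overlapped between the parts. OsMADS3, OsMADS13, OsMADS21 and OsMADS58 were not called in either fit. The part of these markers in the differences above was not tested.

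The second comparison set nuclear RNA against whole-cell RNA, as the mean of upper and lower part on the log2 scale. Of 51 members tested, 4 were called higher in nuclei (OsIAA14, OsIAA20, OsIAA23 and OsIAA25) and 2 lower (OsARF7 and OsARF17), against 14.1% and 8.76% of all 31858 genes tested (22.9% in all). The 6 calls are 11.8% of the members tested. Scaled by library size alone, the split was 3 higher and 3 lower. In the main fit no ARF gene was called higher in nuclei and no Aux/IAA gene lower. The 2 calls are 8.33% of the ARF genes tested, near the 8.76% of all genes called lower. The 4 calls are 14.8% of the Aux/IAA genes tested, near the 14.1% of all genes called higher. At an unadjusted p under 0.05, 5 ARF genes were lower and 0 higher there, and 4 Aux/IAA genes were higher and 0 lower. With replicate number as a block 7 Aux/IAA genes were higher and 2 lower at this level (edgeR), and with DESeq2 4 were higher and 1 lower. The median log2 fold change was -0.28 over 24 ARF genes and -0.03 over 27 Aux/IAA genes, against -0.03 over all genes tested. OsIAA14, OsIAA20, OsIAA23 and OsIAA25 had both nuclei libraries above all 6 whole-cell libraries, and OsARF2, OsARF7, OsARF17 and OsARF18 had both below. Across all genes tested that held for 17.2% above and 18.2% below. The B class marker sum was 244 and 489 CPM in nuclei, against 328 to 1150 CPM in the parts, and its part in these differences was not tested.

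OsARF7 (Os02g0557200), an ARF1/2-like gene, had 8.96 and 11 CPM in nuclei, against 29.6, 77.1 and 31.6 CPM in upper libraries and 42.3, 60.3 and 38 CPM in lower libraries. Both nuclei libraries were well below the others, and the log2 fold change was -2.19 (edgeR, SE 0.49, adjusted p = 0.0127). OsARF17 (Os06g0677800), of the ARF6/8-like class, had 79.7 and 73.5 CPM in nuclei, against 256, 369 and 211 CPM in upper libraries and 199, 215 and 139 CPM in lower libraries. Nuclei lay below every part library, with a log2 fold change of -1.53 (edgeR, SE 0.46, adjusted p = 0.038). Leaving out nuclei replicate 1 or 2 gave edgeR adjusted p of 0.114 and 0.0516 for OsARF7 and of 0.143 and 0.108 for OsARF17, and the call of OsARF17 was also lost without any upper replicate (0.0578, 0.0618 and 0.0503) and without lower replicate 1 or 2 (0.0524 and 0.0523). OsARF17 was not called against the lower part alone either (edgeR adjusted p = 0.107).

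**Figure D5:**
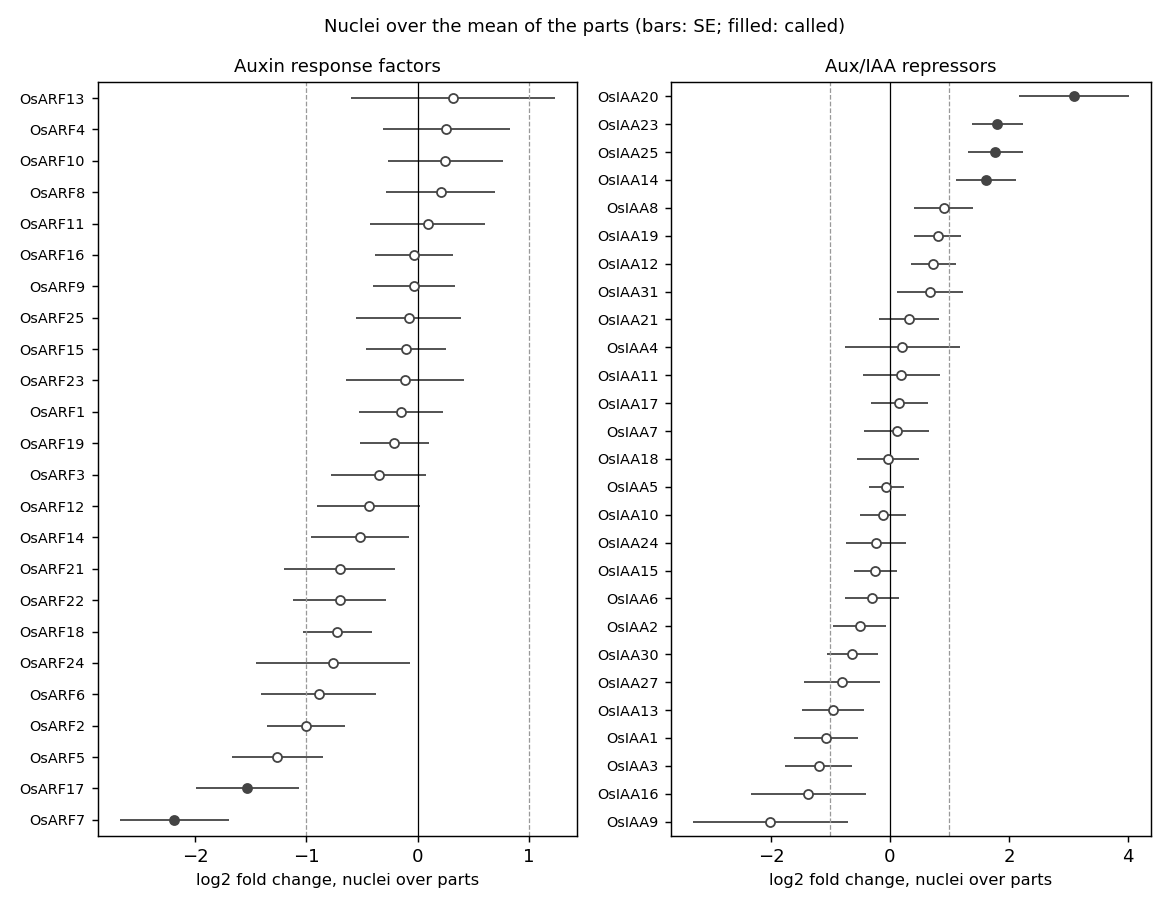
Log2 fold change of each tested member, nuclei (n = 2) over the mean of the upper and lower part (n = 3 each); bars are standard errors, filled points were called and dashed lines mark a log2 fold change of 1 in size. The called ARF genes, OsARF7 (-2.19) and OsARF17 (-1.53), lie at the bottom of the ARF panel, and the called Aux/IAA genes, from OsIAA20 (3.09) to OsIAA14 (1.61), at the top of the other.

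The next ARF genes had log2 fold changes below 0 in nuclei and were not called without the block. With replicate number as a block, OsARF2, OsARF5, OsARF6 and OsARF24 were called lower. Their blocked log2 fold changes were -1.14, -1.32, -1.10 and -1.16 (edgeR adjusted p = 0.0202, 0.0236, 0.0439 and 0.0277). The values below are from the fit without the block. OsARF5 had 23.6 and 21.9 CPM in nuclei, near the lower part (21.8 to 36.5 CPM) and under the upper part (70.3 to 154 CPM). Its log2 fold change was -1.26 (edgeR, SE 0.41, adjusted p = 0.0501), and it was -2.19 against the upper part alone (edgeR adjusted p = 0.0142) and -0.32 against the lower part alone (0.627). OsARF5 was called in 6 of 15 alternatives, among them DESeq2 (adjusted p = 0.018), library size alone (edgeR, 0.0445) and no filter (edgeR, 0.0472). OsARF2 had 19.2 and 13.7 CPM in nuclei, against 20.5 to 28.5 CPM in upper and 34.3 to 55.7 CPM in lower libraries (log2 fold change -1.0, SE 0.35, edgeR adjusted p = 0.0627). OsARF18 had 27.1 and 25.2 CPM in nuclei and 37.5 to 62.7 CPM in the parts (log2 fold change -0.72, SE 0.31, edgeR adjusted p = 0.114). The spread of the rest was wider. OsARF6 had 54.3 and 124 CPM in nuclei and 105 to 347 CPM in the parts (log2 fold change -0.89, SE 0.52, edgeR adjusted p = 0.227). OsARF24 had 24 and 94 CPM in nuclei and 55.1 to 186 CPM in the parts (log2 fold change -0.76, SE 0.69, edgeR adjusted p = 0.436). OsARF22 had 28.8 and 39.5 CPM in nuclei and 30.8 to 97.1 CPM in the parts (log2 fold change -0.70, SE 0.42, edgeR adjusted p = 0.246). For OsARF11, at 2.69 and 2.72 CPM in nuclei, the log2 fold change of 0.09 (edgeR, SE 0.52, adjusted p = 0.912) changed sign in 5 alternatives.

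Among the Aux/IAA genes called higher in nuclei, OsIAA23 (Os06g0597000) is known in rice for maintaining the quiescent centre of the root. It had 12.4 and 11.9 CPM in nuclei, against 3.01, 5.87 and 2.17 CPM in upper libraries and 3.22, 3.24 and 3.73 CPM in lower libraries. With a log2 fold change of 1.80 (edgeR, SE 0.43, adjusted p = 0.017), the nuclei libraries were close to each other and above all parts. OsIAA14 (Os03g0797800) had 80.5 and 91.4 CPM in nuclei, against 42.2, 11.9 and 24.5 CPM in upper libraries and 34.9, 12.9 and 46.5 CPM in lower libraries. Replicate 2 was the lowest of both parts, and the log2 fold change was 1.61 (edgeR, SE 0.50, adjusted p = 0.0434).

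For OsIAA20 and OsIAA25 the nuclei libraries differed from each other. OsIAA20 (Os06g0166500) had 11.8 and 3.71 CPM in nuclei, against 0.714, 0.419 and 1.94 CPM in upper libraries and 0.456, 0.076 and 2.06 CPM in lower libraries. Replicate 3 was the highest of each part, lower replicate 2 was at the floor, and the log2 fold change was 3.09 (edgeR, SE 0.92, adjusted p = 0.037). OsIAA25 (Os08g0109400) had 28.8 and 10 CPM in nuclei, against 6.54, 4.67 and 6.55 CPM in upper libraries and 7.88, 3.32 and 6.02 CPM in lower libraries. Nuclei replicate 1 was far above the rest and replicate 2 just above lower replicate 1 (log2 fold change 1.77, SE 0.46, edgeR adjusted p = 0.0236). Without nuclei replicate 1 the log2 fold change of OsIAA25 was 0.81 and its edgeR adjusted p 0.372, and for OsIAA20 they were 2.01 and 0.354. Without nuclei replicate 1 no call was left among the members, OsIAA23 and OsIAA14 having edgeR adjusted p of 0.0941 and 0.167. Without nuclei replicate 2, OsIAA25 kept its call (0.019) and OsIAA20, OsIAA23 and OsIAA14 did not (0.0572, 0.0543 and 0.156). Leaving out whole-cell libraries also ended the call of OsIAA14 (upper replicates 2 and 3, lower replicates 1 and 2, edgeR adjusted p from 0.0567 to 0.0802) and of OsIAA20 (upper replicates 1 and 2 and lower replicate 1, from 0.0583 to 0.0759). Against the upper part alone or the lower part alone, the edgeR adjusted p was 0.0639 and 0.113 for OsIAA14, 0.09 and 0.082 for OsIAA20 and 0.0506 and 0.0534 for OsIAA25, so none of these was called. OsIAA14 was also not called with library size alone (0.0548).

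OsIAA12, called in the upper part with the block, had 45.3 and 63.9 CPM in nuclei, above all lower and within the range of the upper libraries, and OsIAA11 had 0.538 and 2.72 CPM, above the lower and below the upper libraries. OsIAA3 differed by library within nuclei, with 44.8 and 163 CPM, as did OsIAA21 with 27.3 and 124 CPM. OsIAA19 had 87.1 and 64.2 CPM in nuclei, against 33.1 to 66.2 CPM in upper and 26.1 to 53.7 CPM in lower libraries (log2 fold change 0.80, SE 0.40, edgeR adjusted p = 0.168). With replicate number as a block it was called higher in nuclei (log2 fold change 1.09, SE 0.27, edgeR adjusted p = 0.0239).

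The 4 members that were not tested had at most 3 counts in every library. OsIAA29 had 0 counts in all 8 libraries. OsIAA28 had 0.179 and 0.247 CPM in nuclei, under the floor of 3 counts, and 0 counts in all whole-cell libraries. OsIAA22 was at 0 in nuclei and at most 0.113 CPM in the parts, and OsIAA26 at 0 in nuclei and at most 0.0904 CPM in the parts. OsIAA27, OsIAA28 and OsIAA29 lie close together in the locus order of chromosome 11. OsIAA27 was detected in every library, with 4.03 and 3.09 CPM in nuclei, 2.49 to 10.6 CPM in upper and 5.37 to 9.21 CPM in lower libraries. At these depths a level below the floor was not detectable.

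Other loci of the auxin pathway were taken from a fixed list and are given by locus identifier, as the files give no names. None of 5 TIR1/AFB receptor loci and none of 3 TOPLESS-related corepressor loci was called between the parts in either fit, with 0 at an unadjusted p under 0.05 without the block and 1 receptor with it, and DESeq2 called 0 of them. Their summed levels were 520 to 755 CPM in upper and 490 to 783 CPM in lower libraries for the receptors, and 486 to 611 CPM in upper and 426 to 702 CPM in lower libraries for the corepressors. In nuclei both sums were under those of all whole-cell libraries, at 229 and 344 CPM for the receptors and 259 and 408 CPM for the corepressors. Before adjustment 3 of the 5 receptor loci were lower in nuclei at a p under 0.05, and 1 was called lower, against 8.76% of all genes tested. This locus, Os02g0759700, had 30.7 and 75.8 CPM in nuclei, against 152, 252 and 248 CPM in upper libraries and 110, 174 and 176 CPM in lower libraries (log2 fold change -1.75, SE 0.52, edgeR adjusted p = 0.0376). None of the 3 corepressor loci was called there by edgeR without the block, where 1 had an unadjusted p under 0.05, and DESeq2 called 1 lower. With replicate number as a block, Os03g0254700 was called lower in nuclei (edgeR log2 fold change -1.69, SE 0.40, adjusted p = 0.0199).

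GH3 enzymes conjugate auxin to amino acids, and several GH3 genes are known to be induced by auxin. Of 13 loci, 9 were tested between the parts, where 0 were called without the block (2 higher and 1 lower before adjustment, and 1 called higher by DESeq2) and 2 were called higher in the upper part with it, against 5.12% of all genes. Os01g0785400 had 7.03, 24.5 and 10.9 CPM in upper libraries, against 2.08, 4.1 and 2.44 CPM in lower libraries, which did not overlap (blocked log2 fold change 2.19, SE 0.27, edgeR adjusted p = 0.0167). Os01g0764800 had 41.9, 41.7 and 91.9 CPM in upper libraries, against 2.41, 4.91 and 29.7 CPM in lower libraries, with lower replicate 3 far above the other lower ones (blocked log2 fold change 2.94, SE 0.51, edgeR adjusted p = 0.0301). Between nuclei and parts 10 loci were tested, of which 2 were called higher and 1 lower in nuclei, against 14.1% and 8.76% of all genes. With the block and with DESeq2, 2 were called higher and 2 lower. The block added Os07g0671500 as lower (edgeR adjusted p = 0.0249). Os01g0785400 was higher, with 30.7 and 44.2 CPM in nuclei and 2.08 to 24.5 CPM in the parts (log2 fold change 2.58, SE 0.45, edgeR adjusted p = 0.00431). Os07g0576100, the other locus called higher, had 1.88 and 3.09 CPM in nuclei and at most 0.18 CPM in the parts. It passed the filter through nuclei alone, so its call is not to be set against the 14.1%. Os05g0586200 was lower, with 2.42 and 2.23 CPM in nuclei, against 67.6, 30.3 and 103 CPM in upper libraries and 6.41, 8.79 and 77.7 CPM in lower libraries (log2 fold change -4.26, SE 1.14, edgeR adjusted p = 0.0252).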

How the data were processed

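PolyA RNA was measured in 8 bulk libraries of rice pistils. The authors deposited 1 table of raw counts, whole numbers per feature and library. STAR, featureCounts, DESeq2 and the build IRGSP-1.0 are named without versions in the submitters' processing notes, and the use of strand and the treatment of reads with several matches are not given there. Each of the 8 columns names its sample, and 0 columns were left unused.

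Counts were tested with edgeR 4.0.16 in R 4.3.3 (quasi-likelihood test, TMM scaling, filterByExpr with a minimum count of 10, Benjamini-Hochberg adjustment over all genes tested). The fits were also run on simulated counts. These held no effect shared by replicate number, so they could not test how the block handles pairs. Upper and lower libraries were fitted as 6 libraries, nuclei against the mean of the parts in all 8. Alternatives were other scalings, DESeq2 1.42.0, no filter, no minimum fold, other references, each library left out and replicate number as a block. Deviations from the group means correlated across genes at 0.335, 0.64 and 0.626 for same-numbered upper and lower libraries, and at most at 0.0621 for unlike numbers. Deviations cancel out within a part, so the low values for unlike numbers are no separate support. The numbers come from the labels, which do not state pairs. They were taken as pairs on the basis of these same data.

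Gene names follow the numbering of the member list. RefSeq (assembly ASM3414082v1), which holds only 1 of the identifiers, lists 51 of the 55 names on the same chromosome as the locus. The members, the auxin pathway lists and the tests were chosen with earlier results of these data known. Fold changes with adjusted p are given for members called in either fit. For nuclei most come from the fit without the block. In a class with none called, these statistics are given for the 2 members with the largest log2 fold change at a mean of at least 1 CPM. The other members are given by values, ranges and counts. OsARF19, OsARF15 and the other uncalled members for which values are printed were picked after their values were seen. No sequence is printed here, and the single-nucleus libraries of the series were not analysed here.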

Additional observations from a re-analysis of the deposited data

How the results depend on the processing

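Of 435 repeats of the values under another setting, 349 were rated the same. For single genes this meant the same direction and side of the threshold, for counts of called members a similar count, and for summed CPM a shift under 1 SD. Among single genes, 37 repeats fell short of the threshold, 29 newly passed it and 5 changed sign. The 15 that moved were counts of called members, 10 of 16 between the parts and 5 of 16 for nuclei. Between upper and lower part, members called were 1 under RLE scaling, library size alone, no filter, no minimum fold and the fit of all 8 libraries. They were 4 with DESeq2 (OsARF5, OsARF21, OsIAA11 and OsIAA12, with 5.46% of all genes called) and 6 with the replicate block, against 1 without it. Leaving out single libraries gave 0 to 1, with 0% to 3.15% of all genes called. It was 0 without upper replicate 1, 2 or 3 or lower replicate 1 or 2, where 5 to 6 members higher and 0 to 6 members lower had an unadjusted p under 0.05. The paired fit without 1 replicate pair gave 0 to 7, with 0.325% to 11.7% of all genes called. For nuclei, the count was 6 in the main setting and 4 to 7 under other scalings, tools, filters or references, not always of the same genes. With a replicate block over all 8 libraries it was 11 (29.8% of all genes), adding OsARF2, OsARF5, OsARF6, OsARF24 and OsIAA19. In that fit 3 of the 5 receptor loci were called lower in place of 1, and 1 of the 3 corepressor loci in place of 0. Whether nuclei libraries pair with part libraries of the same number is not known. Same-numbered deviations correlated at 0.0883 and 0.368 for nuclei replicate 1 with upper and lower, and at 0.000968 and 0.165 for nuclei replicate 2. The deviations of 2 nuclei libraries mirror each other, so these correlations cannot decide it. Leaving out single whole-cell libraries gave 3 to 6 members called for nuclei, with 17.4% to 21.7% of all genes called. It was 3 without upper replicate 2 or lower replicate 1. Leaving out either nuclei library leaves 1, and fewer members and fewer of all genes were then called than in the main setting. The log2 fold change of OsARF11 in nuclei turned negative with library size alone (-0.06), the replicate block (-0.05), the lower part alone as reference (-0.62), and without upper replicate 3 (-0.05) or lower replicate 2 (-0.03), where leaving out single libraries gave -0.05 to 0.24. The cause of these changes was not tested. With library size alone the all-gene median was -0.34 between the parts and -0.17 for nuclei on the log2 scale. The group means of summed CPM of both families moved by less than 1 SD under RLE scaling and with total counts as library sizes. Leaving out 1 library cannot move the mean of 2 or 3 libraries by 1 SD, so those runs could not show a change. With total counts the order of single libraries was not kept, as given with the sums. Only 2 nuclei libraries of lower depth limit what could be called for members of few counts.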
